A study of Mus musculus with 15 samples.

Results

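The chemokine receptor transcripts Cx3cr1, Ccr1, Ccr2, Cxcr4, Ccrl2 and Ackr3 were followed across cells of RAW264.7, an established macrophage-like mouse tumour line, that had or had not been given the peptide LCCL. These 6 genes were taken by symbol from a read count table of 25639 symbols. They were chosen by family membership with their fitted changes against untreated cells in view, so their values are given as a description and without a p-value. The 15 RNA-seq libraries formed 5 groups of 3. Treated cells had received LCCL at 1 µg or at 10 µg, each dose for 6 h and for 24 h, and the fifth group was untreated. All groups were labelled wild type and carried the same batch label. The labels gave the doses as amounts with no volume, named no vehicle group and gave no harvest time for the untreated cells. They did not say whether the 3 libraries of a group came from separate cultures, so the p-values below measure only the spread between libraries, which may be technical.

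Chemokine receptors are membrane receptors that mostly couple to inhibitory G proteins and steer leukocytes along gradients of chemokines. In the monocyte and macrophage lineage they mark cell states: Ccr2 marks classical monocytes that enter inflamed tissue, while Cx3cr1 marks patrolling monocytes and several tissue-resident macrophages, among them microglia. Atypical members of the family, such as Ackr3 and Ccrl2, bind chemoattractants without activating G proteins in the usual way. A ligand-bound receptor is phosphorylated by G protein-coupled receptor kinases and bound by arrestins, and RGS proteins shorten the signal by speeding GTP hydrolysis.

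At 24 h the receptor transcripts moved apart. In cells given 10 µg for 24 h, relative to untreated cells, Cx3cr1 stood at 0.224-fold, whereas Cxcr4 stood at 2.18-fold, Ccr2 at 3.01-fold and Ccrl2 at 6.35-fold. Ccr1 stayed low in all groups, and Ackr3 had 0 counts in all 15 libraries. Library totals ran from 19085148 to 22434642 counts, and levels are given as CPM, reads scaled to a common total, on library sizes scaled by the trimmed mean of M-values. A single library stood apart from its group: replicate 1 of the cells given 1 µg for 24 h differed from replicates 2 and 3 by a chi-square per gene of 12.9 and 14.6, against 5.51 between replicates 2 and 3 and 2.51 to 6.86 within the other groups. This library was left out only in the comparisons that include its group. Where that ends or makes a call of a receptor or turns a direction, the value without it is also given. Its part in the spread that the fit shares with the other comparisons was not tested. The macrophage label was checked against 10 macrophage markers, whose summed level was 10935 to 12017 CPM in cells given 10 µg for 24 h and 14698 to 15338 CPM in untreated cells. Most of that sum was Lyz2, at 7573 ± 505 CPM against 9936 ± 166 CPM in untreated cells. Of the 9 markers that were tested, 4 rose and 5 fell, and Mertk, not tested, had 20 reads over all libraries. Markers of fibroblasts and of epithelium each summed to at most 0.10 CPM in every library, those of neutrophils to at most 1.23 CPM and those of endothelium to at most 0.99 CPM. The 6 dendritic cell markers, of which 3 were tested and 2, Xcr1 and Ccr7, are themselves chemokine receptors, summed to 1.81 to 2.65 CPM at 1 µg for 24 h and 1.36 to 2.17 CPM at 10 µg for 24 h, against 0.89 to 1.61 CPM in untreated cells. Of these 3, 2 rose at 1 µg for 24 h and 1 at 10 µg for 24 h. Their part in the receptor levels was not tested.

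**Figure D1:**
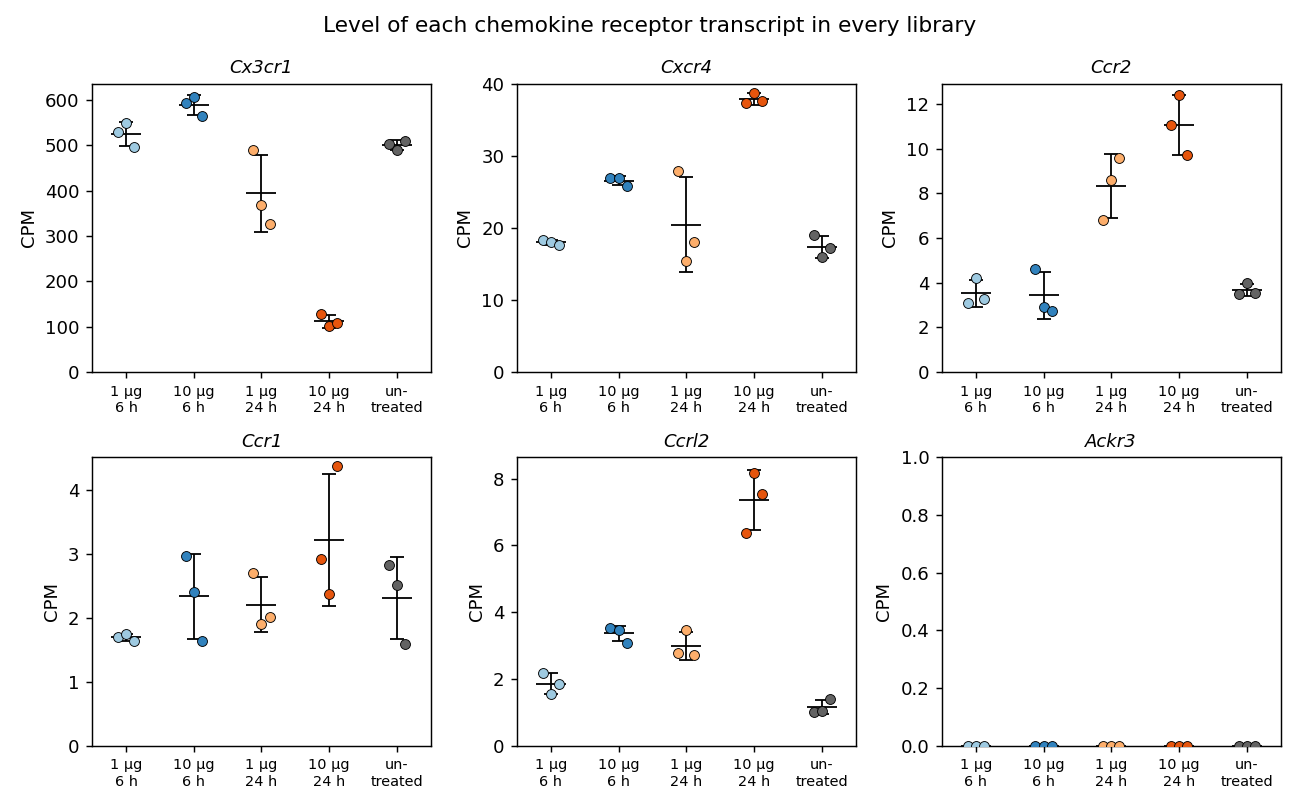
Level of each of the 6 receptor transcripts in CPM (vertical axes, from 0) in every library (points), by group (horizontal axis: 1 µg or 10 µg LCCL for 6 h or 24 h, then untreated). Horizontal lines are group means and bars SD of 3 libraries. Cx3cr1 averaged 112 CPM at 10 µg for 24 h against 500.5 CPM in untreated cells, while Cxcr4, Ccr2 and Ccrl2 had their highest points in that group, and Ackr3 lay at 0 throughout.

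Cx3cr1, the receptor of fractalkine, had the highest level per length of the 6 transcripts in the mean of each group, by a wide margin except at 10 µg for 24 h. It had 128, 101 and 107 CPM in the 3 libraries given 10 µg for 24 h, against 503, 489 and 510 CPM in untreated cells. All 3 treated libraries lay far below the lowest untreated one. The fitted log2 change was -2.16 ± 0.13 (SE), among the largest 2.50% of absolute changes over the 12401 genes tested in that comparison. The 3 libraries at 1 µg for 24 h had 489, 368 and 325 CPM. Replicate 1 lay within the untreated range and the other two below it. The log2 change was -0.34 ± 0.13 with all 3 libraries and -0.53 ± 0.08 without replicate 1. After 6 h the direction differed. The cells given 10 µg for 6 h had 593, 607 and 565 CPM, all above every untreated library, with a log2 change of 0.23 ± 0.13. Fitted with only the groups compared, that SE was 0.035. The values at 1 µg for 6 h of 529, 549 and 496 CPM overlapped the untreated ones, with a log2 change of 0.07 ± 0.13. From low to high, the group means ran 112 ± 14.3 CPM (SD) at 10 µg for 24 h, 394 ± 84.7 at 1 µg for 24 h, 500.5 ± 10.9 in untreated cells, 524 ± 26.8 at 1 µg for 6 h and 588 ± 21.8 at 10 µg for 6 h. The lowest and the highest group were separated from their neighbours, while each of the 3 in between overlapped its neighbour among them. The 1 µg groups did not overlap each other.

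The receptor with the largest relative increase was Ccrl2, an atypical receptor that binds chemerin and is induced in macrophages by inflammatory stimuli. Its libraries had 6.37, 8.17 and 7.53 CPM at 10 µg for 24 h, against 1.02, 1.05 and 1.39 CPM in untreated cells. The groups did not overlap, and the log2 change was 2.67 ± 0.19. Unlike the other 5 receptors, Ccrl2 was separated from untreated cells in each of the 4 treated groups. At 10 µg for 6 h the values were 3.52, 3.47 and 3.09 CPM, a log2 change of 1.54 ± 0.21. They were 2.78, 3.45 and 2.71 CPM at 1 µg for 24 h, a log2 change of 1.37 ± 0.21. These groups overlapped each other. At 1 µg for 6 h the values were 2.19, 1.55 and 1.85 CPM, with a log2 change of 0.69 ± 0.22 that did not pass the threshold over all genes. The level remained low in absolute terms: 450 reads in total carried the mean of 7.36 ± 0.91 CPM at 10 µg for 24 h, and 72 reads the untreated mean of 1.16 ± 0.20 CPM.

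Because Ccrl2 and Cx3cr1 had the largest changes and opposite signs, their promoter windows are shown, each covering 250 bases before to 50 bases after the transcript start on the minus strand of GRCm38.p6, from RefSeq. The Ccrl2 window (chr9:111057469-111057768) belongs to the farthest upstream of its 3 annotated starts, and capitals mark the only match to the NF-kB core letters GGACTTTCC.
Ccrl2: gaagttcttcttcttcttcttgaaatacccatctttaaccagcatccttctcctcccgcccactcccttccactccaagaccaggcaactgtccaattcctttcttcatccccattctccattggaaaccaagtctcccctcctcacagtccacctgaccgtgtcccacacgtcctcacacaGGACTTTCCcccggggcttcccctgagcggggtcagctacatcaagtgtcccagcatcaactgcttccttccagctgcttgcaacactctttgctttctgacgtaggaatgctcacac
Cx3cr1, chr9:120068247-120068546: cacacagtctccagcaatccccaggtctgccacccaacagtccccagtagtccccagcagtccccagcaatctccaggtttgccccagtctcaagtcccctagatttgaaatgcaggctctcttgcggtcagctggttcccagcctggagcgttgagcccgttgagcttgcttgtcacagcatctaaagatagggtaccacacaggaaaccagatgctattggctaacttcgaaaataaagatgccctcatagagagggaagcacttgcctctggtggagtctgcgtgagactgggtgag
The match in the Ccrl2 window began at position 183 from its 5′ end, 68 bases before the transcript start. On either strand, 113 of 32851 promoter windows of this length held these letters, or 0.344%. The windows of the other 5 receptors and the windows of the other 2 Ccrl2 starts held no match. The letters of an AP-1 site, TGANTCA, and of an ETS site as bound by PU.1, GAGGAAG, were in 7.81% and 13.6% of all windows and in none of those of the 6 receptors. The 3 sets of letters were chosen after these sequences had been seen, and a match or its absence describes the letters only. Only these letters were searched, so sites of the same factors spelled otherwise were not looked for.

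Ccr2, the receptor of Ccl2 that brings monocytes out of the marrow, was separated from untreated cells in both 24 h groups and in neither 6 h group. It had 11.1, 12.4 and 9.71 CPM at 10 µg for 24 h, against 3.51, 3.97 and 3.53 CPM in untreated cells, a log2 change of 1.59 ± 0.17. It had 6.80, 8.59 and 9.60 CPM at 1 µg for 24 h, a log2 change of 1.18 ± 0.17. Each 24 h library lay above all untreated ones, and the 1 µg and 10 µg groups did not overlap at 24 h. At 6 h the values were 3.09, 4.20 and 3.28 CPM with 1 µg and 4.63, 2.91 and 2.75 CPM with 10 µg. Both 6 h groups overlapped the untreated libraries, with log2 changes of -0.06 ± 0.19 at 1 µg and -0.09 ± 0.19 at 10 µg.

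Cxcr4, the receptor of Cxcl12 that holds blood cell precursors in the marrow and also binds Mif, was separated from untreated cells in both 10 µg groups and in neither 1 µg group. It had 37.3, 38.8 and 37.7 CPM at 10 µg for 24 h, against 19.0, 15.9 and 17.2 CPM in untreated cells, a log2 change of 1.13 ± 0.15. At 10 µg for 6 h it had 27.0, 27.0 and 25.8 CPM, a log2 change of 0.61 ± 0.16. All 6 of these libraries lay above every untreated one. The 18.4, 18.0 and 17.6 CPM at 1 µg for 6 h lay within the untreated range. At 1 µg for 24 h the libraries had 27.9, 15.4 and 18.1 CPM, so that only replicate 1 was above the untreated range. The log2 change there was 0.24 ± 0.16 with all libraries, -0.06 ± 0.09 without replicate 1, and 0.40 ± 0.12 and past the threshold over all genes without replicate 2. Replicate 1 was the highest of its group for both Cx3cr1 and Cxcr4.

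Ccr1, a receptor of Ccl3, Ccl5 and, in the mouse, Ccl9, showed no separation from untreated cells in any group. It had 2.92, 2.37 and 4.37 CPM at 10 µg for 24 h, against 2.83, 2.51 and 1.59 CPM in untreated cells, a log2 change of 0.48 ± 0.25. Its log2 changes in the other 3 treated groups ran from -0.44 ± 0.27 at 1 µg for 6 h to 0.02 ± 0.26 at 10 µg for 6 h. Between 98 and 198 reads per group lay behind these levels. Ackr3, which scavenges Cxcl12 and Cxcl11, had 0 reads in each library, which allows at most 0.13 to 0.16 CPM per library (3 counts, counting error only).

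**Figure D2:**
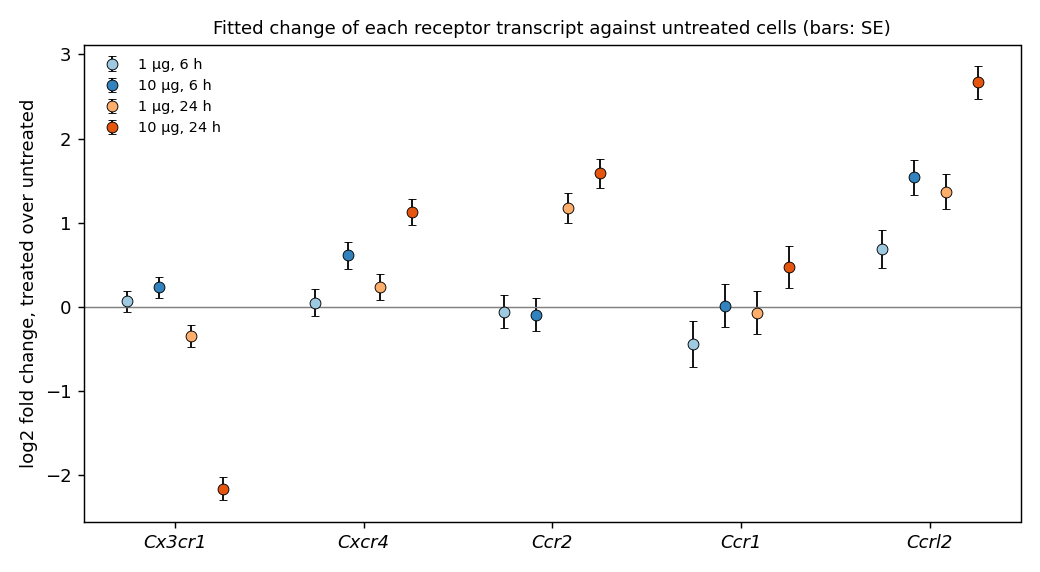
Fitted log2 fold change of the 5 tested receptor transcripts (horizontal axis) in each treated group over untreated cells (vertical axis), with SE bars and a line at 0. Points run 1 µg 6 h, 10 µg 6 h, 1 µg 24 h, 10 µg 24 h from left to right within a gene. Cx3cr1 is below 0 at 24 h, reaching -2.16, while Ccrl2 is above 0 in all 4 groups, reaching 2.67.

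The receptors were then set against all genes. A gene was past the threshold where edgeR's quasi-likelihood test gave an adjusted p under 0.05 by the Benjamini-Hochberg method over 12401 genes, and genes other than the 6 receptors are said to rise or fall only on that condition. Of the 5 receptors tested, 4 were past it at 10 µg for 24 h, 3 higher and 1 lower, where 70.3% of all genes were (35.4% higher and 34.9% lower). At 1 µg for 24 h 3 of the 5 were past it against 61.8% of all genes, and at 10 µg for 6 h 2 of the 5, Ccrl2 and Cxcr4, against 5.95%. At 1 µg for 6 h none was, against 0% of all genes. In that comparison edgeR, DESeq2 and limma-voom each called 0 genes, and 337 genes had an unadjusted p under 0.05 in edgeR. Since these contrasts were in view when the receptors were chosen, nothing is read from the counts. The 4 comparisons share the 3 untreated libraries. The call of Cx3cr1 at 1 µg for 24 h was not stable: it was lost without any 1 of the untreated libraries (log2 change -0.36 to -0.33) and without replicate 2 (-0.30) or replicate 3 (-0.22) of its own group. It was also lost with no filter on low counts (-0.35), with only the groups compared (-0.34) and with scaling by library totals alone (-0.24). The call of Cxcr4 at 10 µg for 6 h was lost without any 1 of the 6 libraries compared, with log2 changes of 0.55 to 0.68. It was also lost with no filter on low counts (0.61) but kept with only the groups compared. The spread in the main fit includes the 1 µg 24 h libraries, which for Cxcr4 had an SD of 6.59 CPM.

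The doses were then compared at the same time. At 24 h, 4 of the 5 receptors were past the threshold between 10 µg and 1 µg, against 35.3% of all genes. The log2 change of Cx3cr1 was -1.82 ± 0.13, or -1.63 ± 0.08 without replicate 1 of the 1 µg group. Those of Ccrl2 and Cxcr4 were 1.30 ± 0.17 and 0.89 ± 0.15, the second 1.18 ± 0.08 without that library. Ccr1, at 0.55 ± 0.25, was past the threshold only without that library (0.72) or without replicate 2 of the 10 µg group (0.72), among the libraries left out in turn. For Ccr2 the change of 0.41 ± 0.16 was smaller, and 0.28 ± 0.16 and no longer past the threshold without that library. It also lost the call without replicate 2 of the 1 µg group (0.43) and without replicate 1 (0.41) or 2 (0.32) of the 10 µg group. Other settings that ended the call of Ccr2 were DESeq2 (0.41), scaling by library totals alone (0.40) and a replicate block (0.41). At 6 h, 1 of the 5 was past the threshold, against 2.35% of all genes. This was Ccrl2, with a log2 change of 0.85 ± 0.19 between 10 µg and 1 µg. That call was lost without replicate 2 (0.73) or 3 (0.85) of the 1 µg group and without replicate 1 (0.81) or 2 (0.83) of the 10 µg group. Cx3cr1 and Cxcr4 were higher in every 10 µg library than in every 1 µg library at 6 h, with log2 changes of 0.17 ± 0.13 and 0.56 ± 0.16. With only the groups compared the SE were 0.035 and 0.069, and both receptors were past the threshold.

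Between 24 h and 6 h of 10 µg, 4 of the 5 receptors were past the threshold, against 69.2% of all genes. The log2 change, 24 h over 6 h, was -2.39 ± 0.14 for Cx3cr1, 1.68 ± 0.17 for Ccr2, 1.13 ± 0.17 for Ccrl2 and 0.51 ± 0.15 for Cxcr4. Ccr1, at 0.46 ± 0.25, was past it without replicate 1 of the 6 h group (0.67) or replicate 2 of the 24 h group (0.64). At 1 µg, 3 of the 5 were past it, against 60.7%. There the log2 change was -0.41 ± 0.13 for Cx3cr1, -0.60 ± 0.08 without replicate 1 of the 24 h group, and the call was lost without its replicate 2 (-0.37). That call also ended with only the groups compared (-0.40) and with scaling by library totals alone (-0.31). Ccr2 changed by 1.23 ± 0.18 and Ccrl2 by 0.68 ± 0.19. For Cxcr4 the log2 change was 0.19 ± 0.16, -0.11 ± 0.09 without replicate 1 of the 24 h group, and 0.35 ± 0.12 and past the threshold without replicate 2. For Cx3cr1 the log2 dose effect (10 µg over 1 µg) at 24 h minus that at 6 h was -1.98 ± 0.18, or -1.80 ± 0.10 without replicate 1 of the 1 µg 24 h group. With all libraries 1 of the 5 receptors, Cx3cr1, was past the threshold for this interaction, against 18.6% of all genes. Cxcr4 (0.33) was also past it without replicate 1 of the 1 µg 24 h group (0.62 ± 0.11), and Ccr2 without replicate 1 of the 10 µg 6 h group (0.73 ± 0.24).

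The mix of receptor transcripts was compared per length of the longest annotated transcript (GENCODE M21). In cells given 10 µg for 24 h Cx3cr1 was at 24.9 ± 3.18 CPM per kb (SD) and Cxcr4 at 21.0 ± 0.43. In untreated cells they were at 111 ± 2.42 and 9.64 ± 0.86 CPM per kb. The ratio of Cx3cr1 to Cxcr4 in single libraries was 1.04 to 1.38 at 10 µg for 24 h, against 10.6 to 12.3 in untreated cells. Its mean was 7.95 ± 1.43 at 1 µg for 24 h, 8.89 ± 0.14 at 10 µg for 6 h and 11.7 ± 0.49 at 1 µg for 6 h. Ccrl2 was at 2.99 ± 0.37 against 0.47 ± 0.08 CPM per kb in untreated cells, and Ccr2 at 1.93 ± 0.24 against 0.64 ± 0.05. In bulk RNA, fewer cells carrying a transcript and less transcript per cell cannot be told apart.

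**Figure D3:**
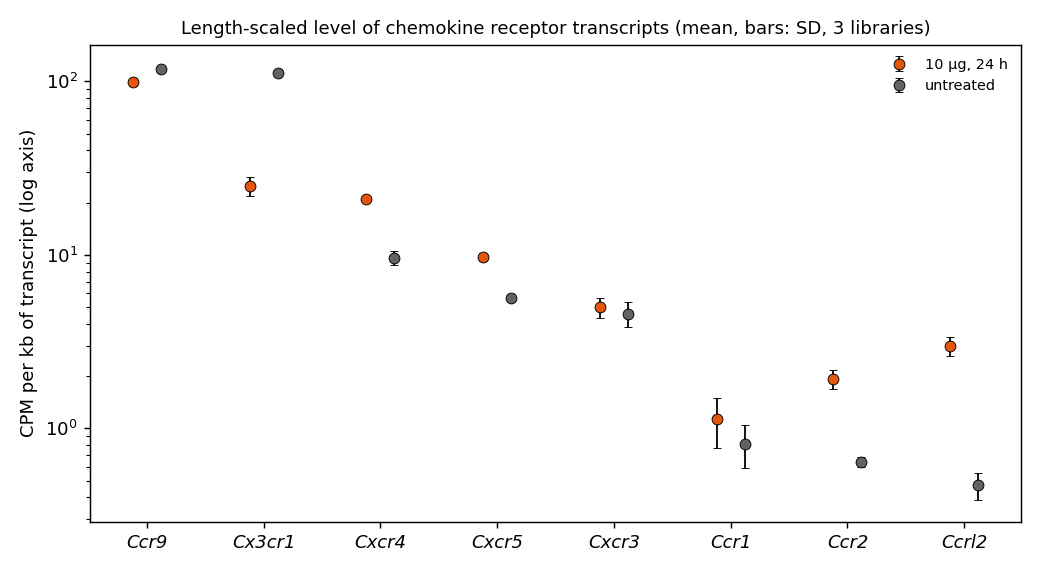
Level in CPM per kb of transcript (vertical log axis) of the 5 detected receptors and 3 further chemokine receptors (horizontal axis), at 10 µg for 24 h and in untreated cells. Points are means and bars SD of 3 libraries. Cx3cr1 lies near Cxcr4 at 10 µg for 24 h and near Ccr9 in untreated cells.

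Of 17 other chemokine receptors, 5 had enough reads to be tested, and 5 of the other 12 had 0 reads in all 15 libraries. Among these was Ccr7, the receptor of dendritic cell migration to lymph nodes. Cxcr5, the receptor of Cxcl13 best known from B cells, rose at 10 µg for 24 h, to 27.8 ± 1.54 CPM against 16.2 ± 0.69 in untreated cells (log2 change 0.78 ± 0.10, edgeR adjusted p = 7.13e-08). It also rose at 1 µg for 24 h (0.70 ± 0.10, edgeR adjusted p = 7.31e-07). Over the same groups the 5 B cell markers summed to 0.57 to 0.73 CPM at 10 µg for 24 h and 0.15 to 0.30 CPM in untreated cells, 3 of them with 0 reads in all libraries. The 7 T cell markers, of which 1, Lck, had enough reads to be tested, summed to 8.14 to 9.76 CPM against 3.66 to 4.38 CPM in untreated cells. Nearly all of that sum was Lck, at 8.95 ± 0.99 CPM against 4.07 ± 0.36 CPM in untreated cells. Over all libraries Cd3e, Cd3g and Cd8a had 0 reads, Trac 2, Cd3d 3 and Cd4 22. The part of either marker set in the receptor levels was not tested. Ccr9, the gut-homing receptor, fell at 10 µg for 24 h, to 99.3 ± 5.30 CPM per kb against 118 ± 4.49 in untreated cells (log2 change -0.25 ± 0.05, edgeR adjusted p = 0.000286). In the annotation used, exons of Ccr9 overlap those of Gm17200 on the same strand, and exons of Cx3cr1 and Cxcr5 overlap Gm33858 and Bcl9l on the other strand. How the counting treated strand is not stated, so reads of such pairs cannot be told apart.

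In the RefSeq annotation of GRCm38.p6, Xcr1, Ccr1, Ccr1l1, Ccr3 and Ccr2 follow each other on chromosome 9. Of these, Ccr2 was past the threshold at 24 h, Ccr1 and Xcr1 were not, and Ccr3 had 25 reads in all. Cx3cr1 and Ccrl2 lie on the same chromosome outside that cluster, and Cxcr4 and Ackr3 lie on chromosome 1.

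The main ligands of Cx3cr1 and Cxcr4 had next to no reads in these cells. Of 13 listed ligands 7 were tested, and at 10 µg for 24 h 1 rose and 3 fell, with a median log2 change of -0.07 against 0.01 over all genes. These and the list counts that follow stand beside 35.4% of all genes higher and 34.9% lower in that comparison. Rarres2, which encodes chemerin, the ligand of Ccrl2, rose to 7.87 ± 1.26 CPM against 2.99 ± 0.35 in untreated cells (log2 change 1.39 ± 0.18, edgeR adjusted p = 1.29e-07). Its exons overlap those of Lrrc61 on the other strand. Cmklr1, the signalling chemerin receptor, had 8 reads over all libraries. Ccl2, the main ligand of Ccr2, fell: it had 2, 3 and 3 reads at 10 µg for 24 h, against 24, 16 and 23 reads in untreated cells (log2 change -2.90 ± 0.45, edgeR adjusted p = 2.64e-06). Ccl2 was a rare transcript in all groups. Mif fell to 84.3 ± 2.12 CPM against 109 ± 5.28 in untreated cells (-0.37 ± 0.05, edgeR adjusted p = 4.18e-07). Ccl9 fell by 0.15 ± 0.05 on the log2 scale (edgeR adjusted p = 0.0059), a call that ended when libraries were scaled by their totals alone (adjusted p = 0.198, range over its alternatives 0.000562 to 0.198). Ccl3 was at 237 ± 19.4 CPM against 248 ± 7.30 in untreated cells (edgeR adjusted p = 0.724). Cx3cl1, the ligand of Cx3cr1, had 3 reads over all 15 libraries and Cxcl12, the ligand of Cxcr4, had 0.

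Downstream of the receptors, 8 of 26 genes for G protein signalling and migration rose at 10 µg for 24 h and 12 fell, against 35.4% of all genes higher and 34.9% lower, with a median log2 change of -0.11 against 0.01 over all genes. Gnai2, the inhibitory G protein subunit used by most chemokine receptors, fell to 413 ± 12 CPM against 618 ± 10.5 in untreated cells (-0.58 ± 0.06, edgeR adjusted p = 8.98e-09). Coro1a, an actin-binding coronin, and Prex1, a Rac exchange factor that responds to G protein subunits, fell by 0.64 ± 0.06 and 0.42 ± 0.05 on the log2 scale. Pik3r6, a regulatory subunit of phosphoinositide 3-kinase gamma, rose by 0.55 ± 0.07. Of 13 tested genes for desensitisation, 5 rose and 4 fell (median -0.02 against 0.01). The RGS genes went both ways. Rgs1 rose to 348 ± 24.6 CPM against 202 ± 9.02 in untreated cells (0.79 ± 0.05, edgeR adjusted p = 8.22e-13), and Rgs2 and Rgs18 rose by 0.52 ± 0.05 and 0.82 ± 0.09. Rgs16 fell to 1.43 ± 0.38 CPM against 6.98 ± 1.22 (-2.28 ± 0.22, edgeR adjusted p = 1.92e-09), although at 10 µg for 6 h it had risen to 15.4 ± 0.79 CPM (1.14 ± 0.16, edgeR adjusted p = 9.0e-05). Rgs1 had also risen at 10 µg for 6 h (0.32 ± 0.05, edgeR adjusted p = 0.000287). Grk2, the kinase that phosphorylates many chemokine receptors, fell to 185 ± 10.9 CPM at 10 µg for 24 h, against 254 ± 11.0 in untreated cells (-0.46 ± 0.05, edgeR adjusted p = 2.81e-08). Arrb2, a beta-arrestin, had a log2 change of -0.09 ± 0.05 (edgeR adjusted p = 0.0931).

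Genes that accompany Cx3cr1 in other macrophages were called in both directions, at shares near those of all genes (35.4% higher, 34.9% lower). Of 11 tested genes known beside Cx3cr1 in tissue-resident macrophages, 3 rose and 5 fell at 10 µg for 24 h (median -0.11 against 0.01 over all genes). Olfml3, a secreted protein enriched in microglia, fell to 1.51 ± 0.33 CPM against 23.5 ± 1.83 in untreated cells (-3.95 ± 0.21, edgeR adjusted p = 3.32e-11). Csf1r, the receptor of macrophage colony-stimulating factor, fell to 841 ± 50.1 CPM against 1439 ± 48.9 (-0.77 ± 0.08, edgeR adjusted p = 9.93e-08). Gas6, a bridge between dying cells and TAM receptors, rose by 1.24 ± 0.08. Of 11 tested genes known beside Cx3cr1 in patrolling monocytes, 4 rose and 5 fell (median 0.14). The scavenger receptor Cd36 fell by 1.50 ± 0.07 and the integrin chain Itgal by 0.84 ± 0.06, while the sialoglycoprotein Spn rose by 0.76 ± 0.09 and the transcription factor Pou2f2 by 0.28 ± 0.07. Of 4 tested genes known beside Ccr2 in classical monocytes, none rose and 2 fell, too few to set beside the 34.9% of all genes that were lower. S100a4 fell to 537 ± 16.8 CPM against 1429.8 ± 24.7 (-1.41 ± 0.06, edgeR adjusted p = 1.09e-16), Lyz2, lysozyme, fell by 0.39 ± 0.06, and Lyz1 had a change of -0.14 ± 0.10 (edgeR adjusted p = 0.236).

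Other chemoattractant receptors were called in both directions, as all genes were. Of 8 tested at 10 µg for 24 h, 4 rose and 3 fell, against 35.4% of all genes higher and 34.9% lower (median -0.18 against 0.01 over all genes). Gpr183, a receptor for oxysterols, fell to 66.3 ± 5.67 CPM against 131 ± 4.76 in untreated cells (-0.98 ± 0.06, edgeR adjusted p = 9.39e-14), and P2ry6, a receptor for UDP, fell to 38.8 ± 5.27 against 69.6 ± 1.27 CPM (-0.84 ± 0.07, edgeR adjusted p = 1.67e-11). Ptafr, the receptor of platelet-activating factor, rose to 127 ± 4.82 against 74.5 ± 3.66 CPM (0.77 ± 0.05, edgeR adjusted p = 6.36e-13). It had also risen at 10 µg for 6 h, to 89.4 ± 0.25 CPM (0.27 ± 0.05, edgeR adjusted p = 0.00161). S1pr2, a receptor of sphingosine 1-phosphate, rose to 90.7 ± 8.17 against 64.2 ± 1.70 CPM (0.50 ± 0.06, edgeR adjusted p = 3.64e-08).

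Genes with the pattern most like that of a receptor were sought among 9816 or 9817 other tested genes. These had a mean of at least 5 CPM and no predicted-gene, Rik, pseudogene or clone name. Ccr1 and Ccrl2 themselves lay below 5 CPM. Likeness was the root mean square difference of the 4 log2 changes against untreated cells, which share their 3 untreated libraries. None of the genes searched came within 0.2 log2 units of Cx3cr1. The nearest was Serinc2 at 0.22, with log2 changes of 0.07, 0.45, -0.47 and -1.79 at 1 µg 6 h, 10 µg 6 h, 1 µg 24 h and 10 µg 24 h. Tex21 (0.28), Efcab12 (0.32), Arc (0.33) and Cd24a (0.33) followed. For Cxcr4 there were 17 genes within 0.2, led by the tyrosine kinase gene Src (0.06), with Tm4sf19 (0.06) and Eya4 (0.08) next. Ccr2 had 75 genes within 0.2, the nearest being Sars, seryl-tRNA synthetase (0.07), Acsbg3 (0.08) and Tspan13 (0.08). For Ccrl2 no gene came within 0.2, and the nearest were Hal, histidine ammonia-lyase (0.44), the neutrophil chemokine Cxcl2 (0.49) and Cd274, which encodes PD-L1 (0.53). For Ccr1, with Amacr (0.11), Klhl41 (0.16) and Mtmr10 (0.16) nearest, 24 genes came within 0.2.

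**Figure D4:**
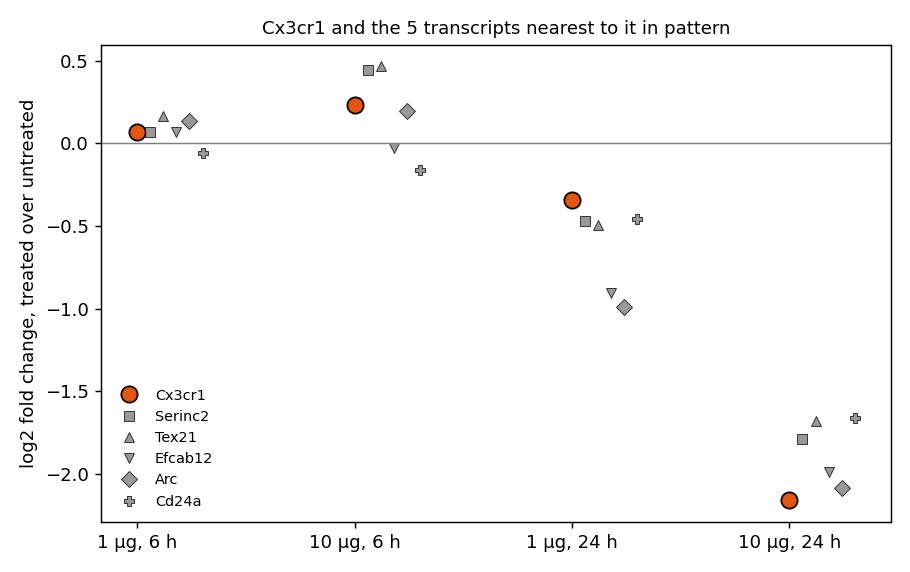
Log2 change over untreated cells (vertical axis) of Cx3cr1 (large circle) and of its 5 nearest transcripts (grey symbols, shifted sideways for legibility) in the 4 treated groups (horizontal axis). All 6 lie between -2.16 and -1.66 at 10 µg for 24 h, where Cx3cr1 is the lowest.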

How the data were processed

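RNA from 15 RAW264.7 libraries was measured as whole-number read counts per gene symbol, deposited by the authors in 1 table with no normalization. Per the labels' protocols, total RNA was extracted with TRIzol, column-purified and prepared for sequencing with the Illumina TruSeq stranded mRNA kit. Per the submitters' processing notes the genome build was GRCm39. Not given in the sources used here are the aligner, counter, annotation and strand setting. Columns were matched to libraries by the names in the labels.

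Counts were fitted in R 4.3.3 with edgeR 4.0.16: filterByExpr at its defaults (12401 genes with 99.97% of counts), TMM scaling, and robust glmQLFit over all 15 libraries, with two-sided glmQLFTest on 9 contrasts and Benjamini-Hochberg adjustment over all genes tested. The model left 10 residual degrees of freedom, and the common biological coefficient of variation was 5.68%. An SE is the log2 change over the square root of F. It draws on the spread within all groups, so it is not the spread of the compared groups alone. CPM are counts over TMM-scaled library sizes. The script was tested on simulated data. Alternatives were DESeq2 1.42.0, limma-voom (limma 3.58.1), other scalings and filters, fits of the compared groups alone, and a replicate block. Each library was also left out in turn, in the comparisons that include its group.

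Library totals of 19085148 to 22434642 counts put a count of 0 below 0.13 to 0.16 CPM (3 counts). No pair of libraries held identical values. Same-numbered libraries of different groups did not deviate together (30 pairs, correlations of deviations -0.08 to 0.10), so numbers were not treated as pairs.

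The receptors and gene lists were chosen with earlier results of these data known. The genes named are the 6 receptors, up to 4 genes per list with the smallest p among those past the threshold against untreated cells, 12 genes taken whatever they showed, and those nearest in pattern. Some list genes are not reported here. Of the 12, those reported are Ccr7, Cx3cl1, Cxcl12, Ccl2, Ccl3, Rarres2, Cmklr1, Grk2, Arrb2, Gnai2 and Csf1r. Lengths come from GENCODE M21 (GRCm38) and promoters from RefSeq (GRCm38.p6), a build older than that of the counts. All 6 receptors had a promoter entry. No coordinates come with the counts.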

Additional observations from a re-analysis of the deposited data

Results flagged for a closer look

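The dose effect on Cx3cr1 pointed in opposite directions at the 2 times, in every library of the groups compared. At 6 h it was 0.17 ± 0.13 log2 units for 10 µg over 1 µg, and at 24 h it was -1.82 ± 0.13. Against untreated cells, 10 µg gave 0.23 ± 0.13 at 6 h and -2.16 ± 0.13 at 24 h. These SE draw on the spread in all groups. With only the groups compared, the 6 h changes were 0.166 ± 0.035 over 1 µg and 0.234 ± 0.035 over untreated cells. Since Cx3cr1 was chosen for its changes, these values are a description. The difference was past the threshold for the interaction, as given above, but nothing is read from that call. None of the other 4 chemokine receptors described with it and tested had separated libraries on opposite sides at the 2 times. Among other named genes P2ry6 did, with 76.1 to 79.3 CPM at 10 µg against 68.5 to 71.1 CPM at 1 µg at 6 h, and 33.6 to 44.1 against 65.5 to 68.3 CPM at 24 h. So did Csf1r, Olfml3 and Pou2f2, so the pattern was not particular to Cx3cr1.

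For 20 of 31 other named genes that were tested the dose effect at 24 h differed from that at 6 h by edgeR's quasi-likelihood test of the interaction, with Benjamini-Hochberg adjusted p under 0.05. Most of these genes were named for a small p against untreated cells in the same libraries, so nothing is read from that count. The differences below are the log2 dose effect at 24 h minus that at 6 h. Among chemoattractant receptors they were -0.56 for Gpr183, -0.93 for P2ry6, 0.32 for Ptafr and 0.36 for S1pr2, and for the ligand Ccl9 -0.25. Among signalling genes the differences were -0.30 for Coro1a and -0.19 for Prex1 (adjusted p = 0.048, the largest of the 20). The call of Prex1 ended in 4 of 8 other settings, among them the replicate block, and without 8 of the 12 libraries left out in turn (adjusted p over all alternatives 0.0188 to 0.134). The call of Rgs18 ended without 4 of the 12 libraries (adjusted p over all alternatives 0.0074 to 0.079). For the desensitisation genes the log2 differences were 0.39 for Rgs1, -1.27 for Rgs16, 0.45 for Rgs18 and -0.28 for Arrb2. Of the macrophage genes, Gas6 had 0.51, Olfml3 -1.80 and Csf1r -0.69. Of the monocyte genes, S100a4 had -0.80, Lyz2 -0.34, Lyz1 -0.59, Itgal -0.34, Spn -0.72 and Pou2f2 -0.59.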

How the results depend on the processing

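The log2 changes of the receptors moved by less than 1 SD between replicates in 656 of 660 alternatives. That SD includes the library left out, so leaving out 1 of 3 libraries could hardly move a change past it. Nothing is read from this count. None of the changes past the threshold changed sign. Cx3cr1 at 10 µg for 24 h lay between -2.26 and -2.07, and Ccrl2 between 2.58 and 2.82. The number of receptors past the threshold at 10 µg for 6 h was 1 with no filter on low counts and 3 with only the groups compared, where Cx3cr1 was past it (0.23). For 10 µg over 1 µg at 6 h it was 2 in DESeq2, 2 in limma-voom and 3 with only the groups compared, where Cx3cr1 and Cxcr4 joined Ccrl2. Over all genes, 1 was called at 1 µg for 6 h with no filter, 1487 at 10 µg for 6 h with only the groups compared (738 otherwise) and 1044 for 10 µg over 1 µg at 6 h (291 otherwise).

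Leaving out 1 library at a time gave 0 genes and 0 receptors at 1 µg for 6 h, 390 to 469 genes and 1 receptor at 10 µg for 6 h, 7016 to 7391 genes and 2 to 3 receptors at 1 µg for 24 h, and 8242 to 8411 genes and 4 to 5 receptors at 10 µg for 24 h. For 10 µg over 1 µg it gave 111 to 163 genes and 0 to 1 receptors at 6 h, and 3581 to 4458 genes and 3 to 4 receptors at 24 h. For 24 h over 6 h it gave 6924 to 7345 genes and 3 receptors at 1 µg, and 8090 to 8340 genes and 4 to 5 receptors at 10 µg. For the interaction it gave 1764 to 2723 genes and 1 to 2 receptors. The causes were not tested. Ccr1 passed the threshold at 10 µg for 24 h without replicate 2 of that group (0.65) and with scaling by library totals alone (0.57). That scaling moved the median of all genes to 0.11 at 1 µg for 24 h and 0.10 at 10 µg, and it ended the call of Cx3cr1 at 1 µg for 24 h (-0.24).

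With a replicate block, Cx3cr1 changed by -2.17 at 10 µg for 24 h, 8630 genes were called there (8717 without the block), and Ccr2 between 10 µg and 1 µg at 24 h was no longer past the threshold (0.41). Same-numbered libraries share only a number. Among the genes nearest in pattern, 3 of 3 for Cxcr4, 2 of 3 for Ccrl2, 1 of 3 for Ccr1, 0 of 3 for Ccr2 and 0 of 5 for Cx3cr1 were among the 100 most correlated over the libraries. For the list genes, 95 of 4091 alternatives ended a call and 48 made one. Depth limits Ccr1, Ccrl2 and Ackr3 most.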

Other observations

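Ccr10, a receptor of skin-homing lymphocytes, was listed mostly at or near 0, with 36 reads in replicate 1 of the cells given 1 µg for 6 h against 1 and 0 in its other libraries. At 10 µg for 6 h it had 14, 0 and 0 reads, at 1 µg for 24 h 7, 3 and 2, at 10 µg for 24 h 0, 7 and 12, and in untreated cells 3, 0 and 0. It was looked at after its values were seen.

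At 10 µg for 6 h, 2 of the 11 tested genes known beside Cx3cr1 in patrolling monocytes rose, among them Pou2f2, and 2 fell. Of all genes, 5.95% were past the threshold there. Pou2f2 rose by 0.41 ± 0.07 on the log2 scale against untreated cells (edgeR adjusted p = 0.000905, n = 3 each). Any link to the later level of Cx3cr1 was not tested. Grk2 fell by 0.23 ± 0.05 there (edgeR adjusted p = 0.00813), but not without untreated replicate 1 (0.0513), untreated replicate 3 (0.0502) or replicate 1 of the treated group (0.0572). Its adjusted p ranged from 0.000146 to 0.0572 over all alternatives.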
